A study of Homo sapiens with 8 samples.

Results

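The MYC-MAX network is a small family of transcription factors that meet on the same DNA sites through a common partner, MAX. Its members were taken by gene symbol: MYC, MYCN, MYCL, MAX, MXD1, MXD3, MXD4, MXI1, MNT and MGA. All 10 were found among the 59050 gene symbols counted, and all 10 passed the filter on low counts that left 16219 genes for testing. RNA was sequenced from 8 xenograft tumours of the established lung cancer line H2122. The 4 parental tumours carry the genotype label WT. The 4 knockout tumours came from cells labelled SMARCA4 KO, and all 8 tumours are labelled as vehicle-treated. SMARCA4 encodes a motor subunit of SWI/SNF, a complex that moves nucleosomes. The labels do not say whether the knockout cells are 1 clone, which host strain was used, or whether tumours came from separate animals. In either case, p-values measure only the spread between these samples, not that between separately derived knockout lines. If the knockout cells are 1 clone, an effect of SMARCA4 loss cannot be told apart from traits of that clone.

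MYC, MYCN and MYCL are basic helix-loop-helix leucine zipper proteins that bind E-box DNA as dimers with MAX and raise transcription of genes for growth, ribosome production and metabolism. The MXD proteins (MXD1, MXD3, MXD4 and MXI1, which is also known as MXD2) and MNT compete with them for MAX and recruit the SIN3 histone deacetylase corepressor. MGA, a very large protein that also has a T-box DNA-binding domain, pairs with MAX inside the Polycomb complex PRC1.6. In lung cancer the MYC family genes are known as recurrent targets of amplification, and MAX and MGA as genes that can be lost.

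The targeted gene was on the side its label gives in every tumour. SMARCA4 averaged 221 ± 16.0 CPM (read counts scaled to a common library size) among parental tumours and 27.3 ± 3.90 CPM among knockout tumours (n = 4 each, SD; log2 fold change -3.02, edgeR adjusted p = 1.45e-07). Gene counts per library ran from 19785922 to 23191698, and knockout libraries lay inside that range. The epithelial markers KRT8, KRT18, KRT19, KRT7, EPCAM, CDH1 and MUC1 were detected in every library, with a summed level of 7505 to 8814 CPM in parental and 6599 to 7972 CPM in knockout tumours. Of these 7, 2 were called lower: KRT7 (1584 to 1802 CPM in parental, 851 to 1097 CPM in knockout tumours) and KRT19 (929 to 1273 and 454 to 572 CPM). Of 4 lung lineage markers, NKX2-1 and SFTPC were at 0 counts in all 8 libraries. Parental replicate 2 had the highest sums of leukocyte and skeletal muscle markers: its 8 leukocyte markers summed to 50.5 CPM and its 6 skeletal muscle markers to 24.7 CPM. Parental replicate 3 came next in leukocyte markers, at 38.6 CPM. The other parental tumours had 7.82 to 38.6 CPM and 0.134 to 5.31 CPM, and the knockout tumours 11.7 to 21.8 CPM and 0.0975 to 12.1 CPM. Some single markers moved with the genotype, while most others of their lists overlapped between the groups. The fibroblast marker LUM was at 0.104 to 0.638 CPM in parental and 10.1 to 15.5 CPM in knockout tumours and was called higher, while the 6 fibroblast markers summed to 179 to 607 and 343 to 603 CPM. COL1A1, which made up most of that sum, was at 174 to 572 and 317 to 565 CPM. The endothelial marker VWF was at 1.27 to 3.08 and 0.280 to 0.439 CPM and was called lower, with sums of 5 endothelial markers of 7.25 to 18.0 and 8.68 to 15.2 CPM. CDH5 was at 0.0488 to 1.16 CPM in parental tumours and at 0 in knockout tumours. PECAM1, the most abundant of the 5, was at 5.14 to 12.9 and 7.99 to 14.6 CPM. The part of these markers in the results on the network was not tested. A bulk count cannot tell fewer cells of a type from less RNA per cell, and mouse host reads may be among these counts.

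Windows of 300 bases at the start of transcription, 250 before and 50 after it, were found in RefSeq (GRCh38.p14) for 9 of the 10 members, MYC being the other, and 4 are shown. MYCN is shown as the member that changed most and MXD1 as the member that rose. MXD4 and MNT have the only member windows with the E-box CACGTG that MYC-MAX and MXD-MAX dimers bind, and neither gene was called. They lie at chr2:15940300-15940599 (plus strand), chr2:69914859-69915158 (plus strand), chr4:2262060-2262359 (minus strand) and chr17:2401011-2401310 (minus strand). Capitals mark 3 sets of letters, searched on both strands: CACGTG, the E2F-type site TTTCGCGC and the GC box GGGCGG.
MYCN: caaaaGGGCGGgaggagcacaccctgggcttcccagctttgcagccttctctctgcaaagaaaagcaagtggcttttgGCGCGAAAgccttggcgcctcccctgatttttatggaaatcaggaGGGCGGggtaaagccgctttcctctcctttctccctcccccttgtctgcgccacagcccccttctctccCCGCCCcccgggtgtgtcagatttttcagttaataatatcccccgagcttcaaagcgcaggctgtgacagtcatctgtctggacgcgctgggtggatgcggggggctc
MXD1: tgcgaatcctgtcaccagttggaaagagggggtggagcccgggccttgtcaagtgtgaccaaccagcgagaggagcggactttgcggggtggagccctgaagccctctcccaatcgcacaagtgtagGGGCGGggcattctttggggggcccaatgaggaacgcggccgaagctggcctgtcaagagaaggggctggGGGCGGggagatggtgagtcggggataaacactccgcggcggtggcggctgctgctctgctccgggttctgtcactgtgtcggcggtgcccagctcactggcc
MXD4: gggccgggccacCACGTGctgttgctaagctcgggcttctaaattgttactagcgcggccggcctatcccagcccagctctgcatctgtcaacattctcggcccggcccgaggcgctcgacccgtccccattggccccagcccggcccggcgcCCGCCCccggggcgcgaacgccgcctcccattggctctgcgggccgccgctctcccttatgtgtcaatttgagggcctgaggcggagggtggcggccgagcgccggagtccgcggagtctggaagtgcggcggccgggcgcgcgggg
MNT: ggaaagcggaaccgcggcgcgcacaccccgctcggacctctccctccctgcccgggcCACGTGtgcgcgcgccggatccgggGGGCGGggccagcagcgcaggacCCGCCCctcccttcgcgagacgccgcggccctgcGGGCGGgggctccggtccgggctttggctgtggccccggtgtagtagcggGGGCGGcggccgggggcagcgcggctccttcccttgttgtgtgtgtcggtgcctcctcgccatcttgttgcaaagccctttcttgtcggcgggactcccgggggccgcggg
The E-box began 238 bases before the start in MXD4 and 193 bases before it in MNT. It was present in 7.26% of all 35116 windows in the table. The MYCN window held the E2F-type letters 172 bases before the start, which 0.515% of all windows hold, and GC boxes at 245, 127 and 58 bases before it. MXD1 had GC boxes at 123 and 53 bases before its RefSeq start, which lies inside the longer GENCODE gene. At least 1 GC box was present in 11 of the 14 windows of the 9 members and in 45.0% of all windows. None of these letters overlapped in the windows shown, and a match describes letters only.

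MYCN, MYCL and their partner MAX were lower, and 1 antagonist was higher, in knockout tumours. MYCN fell 5.67-fold, MYCL 1.49-fold and MAX 1.25-fold, while MXD1 rose 1.36-fold. MYC itself, by far the most abundant member, had a mean 78.2% of the parental level and was not called. MXI1, MXD3, MXD4, MNT and MGA were not called either. The 4 called members, 3 lower and 1 higher, make 40% of the 10, against 27.0% of all 16219 tested genes called by edgeR's quasi-likelihood test at an adjusted p-value under 0.05 (14.1% lower and 13.0% higher). The median log2 fold change of the 10 was -0.25, beside 0.0035 over all tested genes. With 10 members these shares describe the family and test nothing about it.

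**Figure D1:**
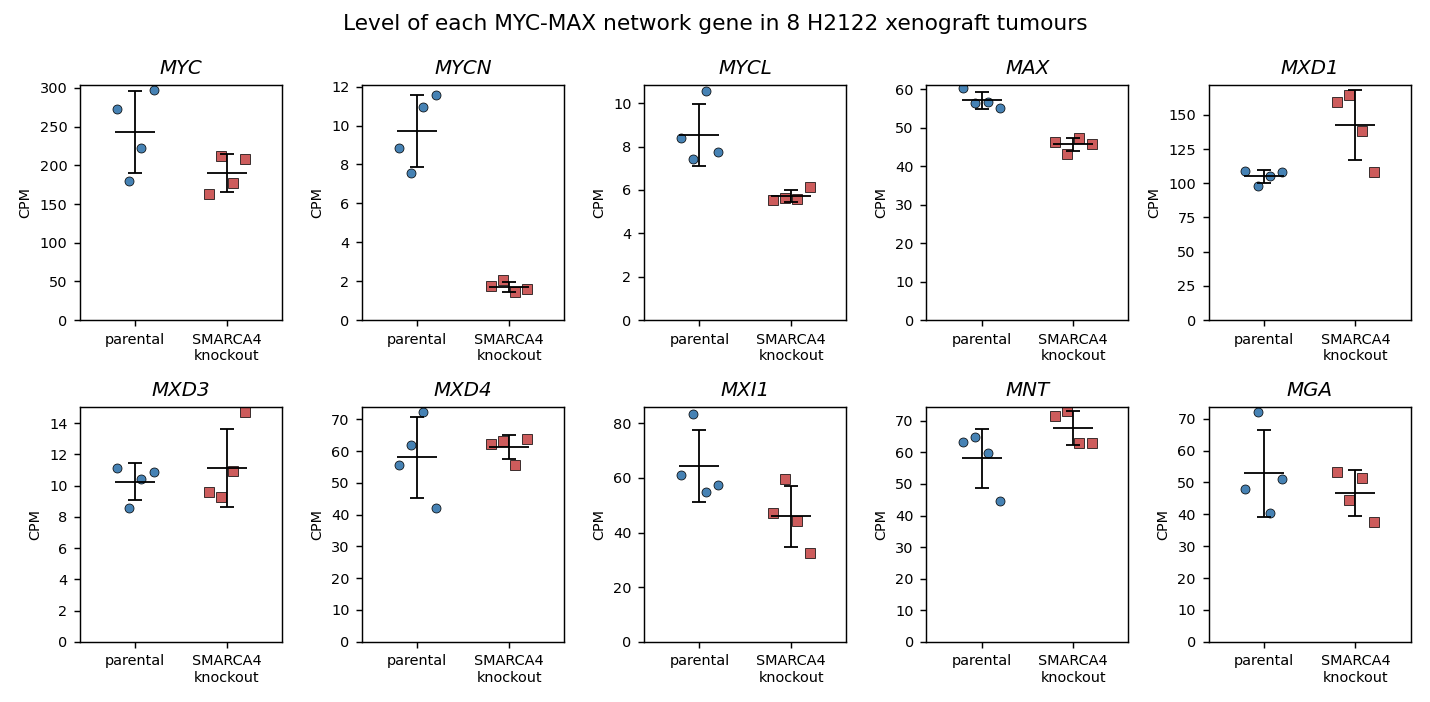
Level of each network gene in CPM (vertical axes, from 0) in each of the 4 parental (circles) and 4 SMARCA4 knockout tumours (squares), with the mean and SD as bars. MYCN, MYCL and MAX have all knockout points below all parental points; in the other panels the groups overlap.

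MYCN (ENSG00000134323, chromosome 2, 15940564 to 15947007, plus strand, GENCODE 29 on GRCh38) encodes the paralog first known from amplification in neuroblastoma. It was at 8.86, 7.57, 10.9 and 11.6 CPM in parental replicates 1 to 4 and at 1.78, 2.05, 1.45 and 1.59 CPM in knockout replicates 1 to 4. The lowest parental tumour thus stood well above the highest knockout tumour, and the knockout tumours lay close together. The means were 9.73 ± 1.85 and 1.71 ± 0.260 CPM (n = 4 each, SD), from 843 and 145 counts. The log2 fold change was -2.50 (edgeR SE 0.191, adjusted p = 5.10e-06), and it ran from -2.61 to -2.42 over all alternatives and tumours left out.

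The antisense gene MYCNOS overlaps MYCN on the minus strand and had 14 counts in all parental libraries and 1 in all knockout libraries, that 1 in knockout replicate 2. The parental-to-knockout ratio was 13.8 (exact 95% interval for counting error 2.11 to 585). The strandedness of the counting is not given in the sources used here, so reads of MYCN and MYCNOS cannot be told apart with certainty. The nearest tested protein-coding genes on either side of MYCN were not called. DDX1, an RNA helicase gene 309 kilobases before it, was at 178 ± 23.1 and 157 ± 5.95 CPM (log2 fold change -0.18, edgeR adjusted p = 0.209). FAM49A, 602 kilobases after it, was at 0.864 ± 0.455 and 0.768 ± 0.334 CPM (-0.17, adjusted p = 0.817; n = 4 each, SD), and its sign turned without parental replicate 2 or knockout replicate 4.

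MYCL (ENSG00000116990, chromosome 1, 39895426 to 39902256, minus strand), the paralog first found amplified in small cell lung cancer, was at 8.39, 7.42, 10.6 and 7.74 CPM in parental replicates 1 to 4. In knockout replicates 1 to 4 it was at 5.51, 5.61, 5.60 and 6.12 CPM. The groups did not overlap, and the knockout tumours varied less (coefficient of variation 4.80%, against 16.7% in parental tumours). The log2 fold change was -0.58 (edgeR SE 0.145, adjusted p = 0.0122). Leaving out 1 tumour gave -0.64 to -0.46, with adjusted p-values of 0.00895 to 0.0380.

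MYC (ENSG00000136997, chromosome 8, 127735434 to 127741434, plus strand) was at 273, 179, 222 and 297 CPM in parental replicates 1 to 4 and at 163, 212, 177 and 208 CPM in knockout replicates 1 to 4. Parental replicates 1, 3 and 4 lay above every knockout tumour, while parental replicate 2 lay among them. The means were 243 ± 52.6 and 190.0 ± 24.1 CPM (n = 4 each, SD), and the log2 fold change of -0.35 (SE 0.152) was not called (edgeR adjusted p = 0.111). Without parental replicate 2, the tumour with the highest leukocyte and muscle markers, it was -0.48 and was called (edgeR adjusted p = 0.0165). Leaving out each other tumour gave adjusted p-values of 0.113 to 0.260. Parental replicate 3, next in leukocyte markers, had MYC at 222 CPM. Parental replicate 2 also had the lowest share of reads assigned to a gene (79.1%) and the highest share not uniquely aligned (8.11%) of all libraries. The part of these shares, or of leukocyte and muscle markers, in its MYC level was not tested.

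Of the genes around MYC on chromosome 8, 9 of the 10 found were tested, and their median log2 fold change was 0.02. GSDMC, a gasdermin gene 2007 kilobases after MYC, fell by 0.61 on the log2 scale (edgeR adjusted p = 0.0133). NSMCE2, a SUMO ligase gene, fell by 0.54 (edgeR adjusted p = 0.00812). The other 7 were not called, among them TRIB1, 2297 kilobases before MYC. The share called was 22.2%, beside 27.0% of all tested genes. PVT1, the long non-coding RNA gene beside MYC, was at 12.2 ± 1.17 and 10.7 ± 1.44 CPM (n = 4 each, SD; log2 fold change -0.18, adjusted p = 0.326).

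MAX (ENSG00000125952, chromosome 14, 65006174 to 65102695, minus strand), the common partner in the network, showed a small change with little spread. It was at 60.3, 56.5, 56.6 and 55.2 CPM in parental replicates 1 to 4 and at 46.4, 43.2, 47.3 and 45.7 CPM in knockout replicates 1 to 4. The coefficient of variation was 3.82% and 3.79%, the lowest among the 10 members in each group, and the groups did not overlap. The log2 fold change was -0.32 (edgeR SE 0.0750, adjusted p = 0.00803), and the call held in each alternative and without each tumour (highest adjusted p = 0.0321). FNTB and CHURC1-FNTB overlap MAX on the other strand, so its absolute level is less certain. MYCN, MYCL and MAX were the 3 members whose groups did not overlap, 30.0% of 10, beside 29.3% of all tested genes.

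**Figure D2:**
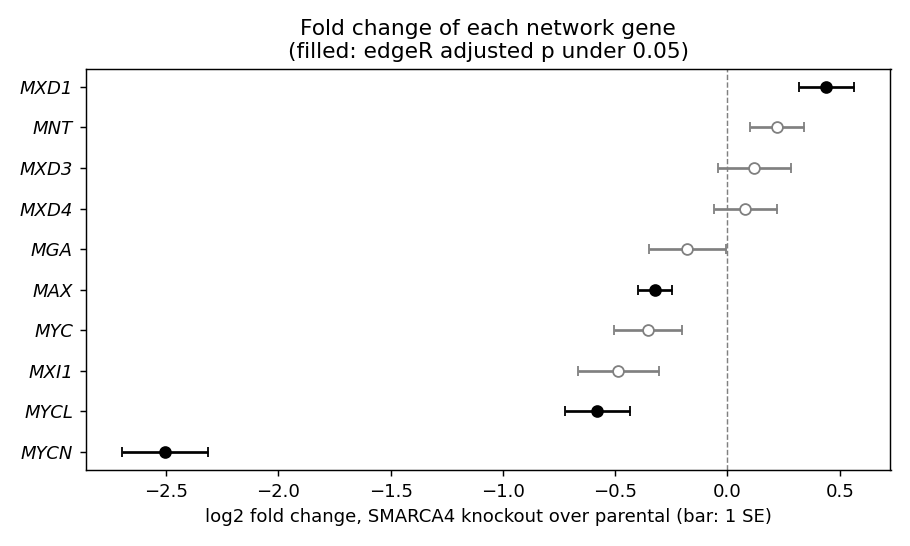
Log2 fold change of each network gene (horizontal axis, knockout over parental) with 1 SE from the edgeR fit on 4 against 4 tumours. Filled points passed an adjusted p of 0.05: MYCN at -2.50, MYCL at -0.58 and MAX at -0.32 are to the left of 0 and MXD1 at 0.44 is to the right.

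Among the antagonists, MXD1 (ENSG00000059728, chromosome 2, 69897688 to 69942945, plus strand), an E-box repressor linked to differentiation, was the only gene called. It was at 109, 98.2, 105 and 108 CPM in parental replicates 1 to 4 and at 159, 165, 138 and 108 CPM in knockout replicates 1 to 4. Knockout replicates 1, 2 and 3 were above every parental tumour, whereas knockout replicate 4 lay within the parental range. The means were 105 ± 4.85 and 143 ± 25.8 CPM (n = 4 each, SD), and the log2 fold change was 0.44 (edgeR SE 0.123, adjusted p = 0.0208). The call was lost without knockout replicate 1 (0.38, adjusted p = 0.0666) or knockout replicate 2 (0.36, adjusted p = 0.0668). Without knockout replicate 4 it was 0.55 (adjusted p = 0.00153).

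MXI1 (ENSG00000119950, chromosome 10, 110207605 to 110287365, plus strand), a repressor of the same family, had a lower mean in knockout tumours and was not called. It was at 61.2, 83.5, 54.8 and 57.6 CPM in parental replicates 1 to 4 and at 47.1, 59.5, 44.3 and 32.6 CPM in knockout replicates 1 to 4. Parental replicate 2 was the highest of all 8 tumours, and knockout replicate 2 overlapped the parental group. The log2 fold change was -0.49 (edgeR SE 0.179, adjusted p = 0.0668). It was called by DESeq2 (-0.49, adjusted p = 0.0343), without a low-count filter (-0.50, 0.0145) and without knockout replicate 2 (-0.63, 0.0264). Without parental replicate 2 it was -0.34 (0.151).

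MXD3 (ENSG00000213347, chromosome 5, 177301461 to 177312757, minus strand), a family member usually high in proliferating cells, was at 11.1, 8.54, 10.5 and 10.9 CPM in parental replicates 1 to 4. In knockout replicates 1 to 4 it was at 9.63, 9.26, 10.9 and 14.8 CPM, so that knockout replicate 4 alone exceeded the parental range (log2 fold change 0.12, SE 0.164, edgeR adjusted p = 0.635). Without that tumour the value was -0.04. RAB24 overlaps MXD3 on the same strand, and reads there can be counted as ambiguous.

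MXD4 (ENSG00000123933, chromosome 4, 2247432 to 2262294, minus strand) was at 55.6, 61.8, 72.4 and 42.1 CPM in parental replicates 1 to 4 and at 62.3, 63.3, 55.5 and 63.9 CPM in knockout replicates 1 to 4. The parental tumours lay on both sides of the knockout tumours (log2 fold change 0.08, SE 0.141, edgeR adjusted p = 0.724). Without parental replicate 4, the lowest, the value was -0.05.

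MNT (ENSG00000070444, chromosome 17, 2384060 to 2401118, minus strand), the broadly expressed MYC antagonist, was at 63.3, 64.8, 59.9 and 44.5 CPM in parental replicates 1 to 4 and at 71.7, 73.0, 63.1 and 63.0 CPM in knockout replicates 1 to 4. Knockout replicates 1 and 2 exceeded every parental tumour, and the other two fell within the parental range (log2 fold change 0.22, SE 0.120, edgeR adjusted p = 0.208).

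MGA (ENSG00000174197, chromosome 15, 41621224 to 41773081, plus strand), the PRC1.6 subunit, was at 47.8, 72.02, 40.3 and 51.1 CPM in parental replicates 1 to 4 and at 53.4, 44.5, 51.2 and 37.4 CPM in knockout replicates 1 to 4. The groups overlapped almost fully (log2 fold change -0.18, SE 0.171, edgeR adjusted p = 0.479). Parental replicate 2 held the highest value of MGA, MXI1 and MNT among parental tumours and the lowest of MYC, MYCN, MYCL, MXD1 and MXD3. Without it the log2 fold change of MGA was 0.0053.

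Levels were then set side by side per kilobase of annotated exon, since a longer transcript gives more counts. The exon length, the union over all GENCODE 29 transcripts of a gene, ran from 2.60 kilobases for MYCN to 17.7 for MGA and can exceed the transcript in use. SNRNP27 overlaps MXD1 and AL360182.1 overlaps MXI1, each on the same strand. Reads there can be counted as ambiguous, so the levels of MXD1 and MXI1 are also less certain. MYC led at 80.9 ± 17.5 CPM per kilobase in parental and 63.3 ± 8.02 in knockout tumours (n = 4 each, SD). MXD1 came next at 16.6 ± 0.763 and 22.5 ± 4.06. In both groups the lowest MYC value was above the highest MXD1 value.

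Below them in parental tumours came MXI1 (13.96 ± 2.84 CPM per kilobase), MAX (12.9 ± 0.493), MXD4 (8.22 ± 1.79) and MNT (6.66 ± 1.07). The last 4 were MYCN (3.74 ± 0.711), MGA (2.99 ± 0.769), MXD3 (1.99 ± 0.228) and MYCL (1.69 ± 0.282; SD, n = 4 for each). Ranges of neighbours in this order overlapped for MXD1 with MXI1, MXI1 with MAX, MXD4 with MNT, MYCN with MGA, and MXD3 with MYCL. In knockout tumours MAX (10.3 ± 0.391) and MXI1 (9.96 ± 2.40) changed places with overlapping ranges. MYCN moved from 7 to 10 in the order, at 0.659 ± 0.0999 CPM per kilobase, with all 4 values below those of MYCL (1.13 ± 0.0542).

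**Figure D3:**
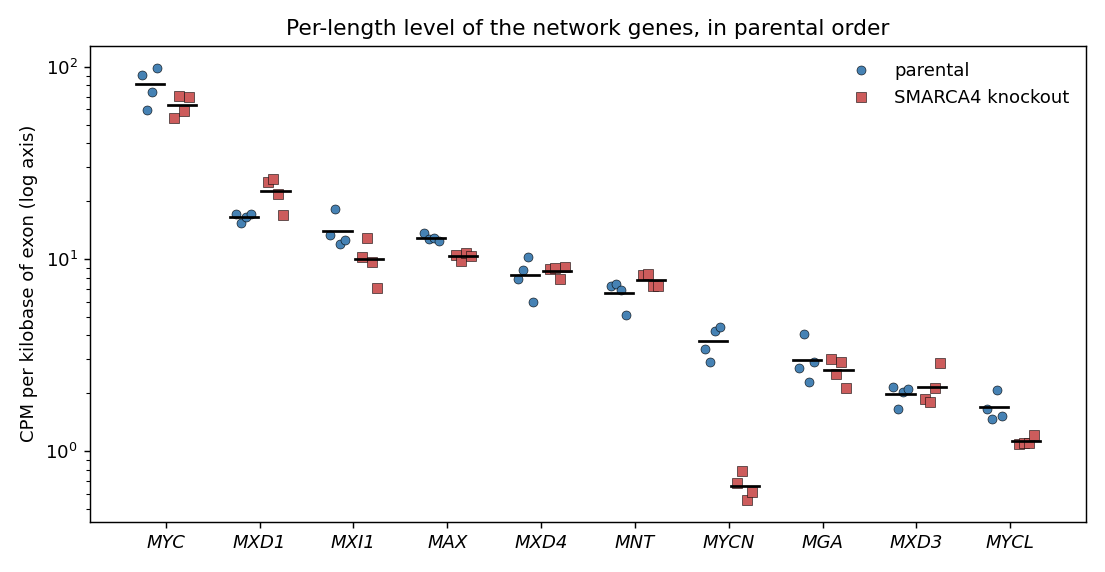
Level of each network gene in CPM per kilobase of exon (log axis) in the parental (circles) and SMARCA4 knockout tumours (squares), ordered by the parental mean, with means as bars. MYC is highest in both groups, and MYCN drops from 3.74 to 0.659, below MYCL.

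As a share of the summed per-length level of the 3 MYC paralogs, MYC made up 93.6% ± 1.16 in parental and 97.2% ± 0.273 in knockout tumours. MYCN went from 4.39% ± 0.700 to 1.02% ± 0.163, and MYCL was at 2.02% ± 0.521 and 1.75% ± 0.179 (n = 4 each, SD). The paralog sum was 96.0, 64.1, 80.3 and 105 CPM per kilobase in parental replicates 1 to 4. For knockout replicates 1 to 4 it came to 56.1, 72.7, 60.5 and 71.1. Parental replicate 2 again fell among the knockout tumours.

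The 6 antagonists summed to 50.4 ± 4.05 and 53.7 ± 6.68 CPM per kilobase, with overlapping groups. Within that sum the share of MXD1 was 33.1% ± 3.93 in parental and 41.6% ± 2.81 in knockout tumours, and that of MXI1 was 27.6% ± 3.71 and 18.4% ± 2.37 (n = 4 each, SD). The ranges of the MXD1 share were barely apart, at 27.9% to 37.4% in parental and 37.5% to 43.8% in knockout tumours. Those of the MXI1 share were 23.8% to 32.7% and 15.6% to 21.3%. The shares of MXD3, MXD4, MNT and MGA overlapped between the groups. In CPM, the groups did not overlap for 29.3% of all tested genes. The ratio of the paralog sum to the antagonist sum was 1.90, 1.16, 1.61 and 2.30 in parental replicates 1 to 4. In knockout replicates 1 to 4 it was 0.980, 1.20, 1.18 and 1.57. Parental replicate 2 lay within the knockout range, and the other parental tumours lay above it. These sums describe RNA, and no test is given for sums over chosen members.

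**Figure D4:**
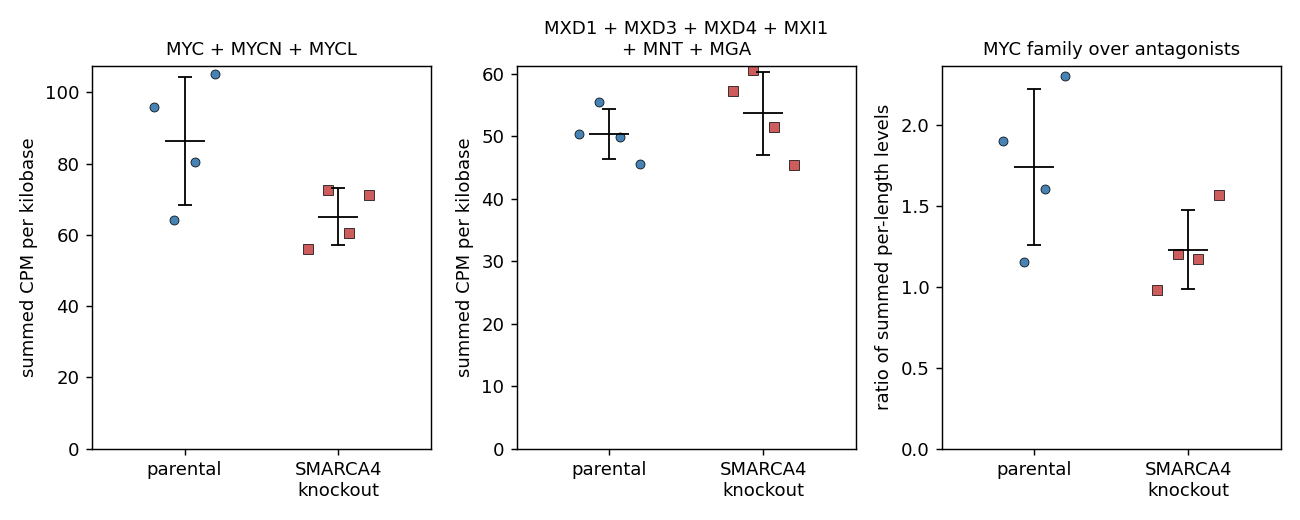
Summed per-length level of MYC, MYCN and MYCL (left), of MXD1, MXD3, MXD4, MXI1, MNT and MGA (middle), and the ratio of the first to the second (right) in each tumour, with the mean and SD; vertical axes start at 0. The ratio averages 1.74 in parental and 1.23 in knockout tumours, and the groups overlap in every panel.

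Gene profiles over the 8 tumours were compared with those of MYC and MYCN among 13052 other genes whose log2 CPM averaged 1 or more. Each profile was centred on its parental mean. The nearest to MYC by root mean square difference in log2 CPM were RAD51AP1 (0.0765), FIGNL1 (0.0817) and CDCA7 (0.107). Their log2 fold changes were -0.30, -0.32 and -0.37, beside -0.35 for MYC. The nearest to MYCN were INSYN2A (0.189), PAX9 (0.196) and SYT7 (0.207). They had log2 fold changes of -2.37, -2.44 and -2.64, beside -2.50 for MYCN. These genes were chosen for their likeness over the same tumours, so the values describe them and no test is given.

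Beyond the members, 12 lists of partners, regulators and targets held 171 tested genes, of which 30 were called, 8 higher and 22 lower. That is 17.5% of the 171, below the 27.0% of all tested genes, and the shares of single lists ran from 0% to 40%. Of these 30, 16 were called whichever tumour was left out and 14 lost the call without at least 1 tumour. Of the 171, 17 were called without knockout replicate 1 and 18 without knockout replicate 3. Up to 2 genes per list are named by the smallest p. Further names complete counts of 4 or fewer or give well-known uncalled genes, and were chosen after their values were seen.

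MLX is the MAX-like partner of the glucose-sensing factors MLXIP (MondoA) and MLXIPL (ChREBP), whose targets include TXNIP and ARRDC4. Of 5 genes tested, 2 fell and none rose, 40% of the list beside 27.0% of all tested genes (median log2 fold change -0.30). MLXIP averaged 188 ± 18.3 CPM among parental and 122 ± 3.43 CPM among knockout tumours (n = 4 each, SD; -0.62, SE 0.0860, edgeR adjusted p = 0.000300). ARRDC4, an arrestin-domain gene, fell by 0.30 on the log2 scale (adjusted p = 0.0463), a call that held only without parental replicate 2 or 3 when 1 tumour was left out (highest 0.140). Upper-quartile scaling also ended it (0.0767). TXNIP was at 587 ± 135 and 473 ± 96.9 CPM (adjusted p = 0.229).

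Cofactors through which MYC acts on chromatin and polymerase gave 4 calls among 17 genes, 23.5% beside 27.0% of all tested genes. Their median log2 fold change was -0.11. CDK9, the kinase of the elongation factor P-TEFb, rose by 0.33 (edgeR adjusted p = 0.0127). ACTL6A, an actin-like subunit shared by SWI/SNF and the TIP60 complex, fell by 0.41 (0.0318). RUVBL2 and SMARCB1 also fell, by 0.31 (0.0442) and 0.22 (0.0474). SMARCB1 lost its call without any of the 8 tumours, RUVBL2 without any except parental replicate 2 and knockout replicate 4, and ACTL6A without parental replicate 1 or 4 or knockout replicate 1, 2 or 3.

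The SIN3 corepressor that MXD proteins and MNT recruit gave 4 calls among 16 genes, 25% beside 27.0% of all tested genes. Its median log2 fold change was -0.13. The deacetylase gene HDAC2 fell from 132 ± 16.0 to 98.3 ± 2.78 CPM (n = 4 each, SD; log2 fold change -0.43, edgeR adjusted p = 0.00584), called without each tumour. The SIN3 subunit gene SAP30 fell by 0.48 (0.0151) and HDAC1 by 0.29 (0.0235), while the subunit gene ING2 rose by 0.38 (0.0331). The call of SAP30 was lost without knockout replicate 3 (0.0511), that of HDAC1 without knockout replicate 1, 2 or 3 (highest 0.0811), and that of ING2 without every tumour except parental replicate 4 (highest 0.0884). HDAC1 and HDAC2 are also counted with the MGA partners in PRC1.6. There they were the only 2 calls among 12 genes, 16.7% of the list (median log2 fold change -0.03). That list had 4 calls without parental replicate 4 and 1 without knockout replicate 1, 2 or 3.

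Of 16 germline genes known as targets of MGA and PRC1.6 repression, 5 had enough counts to test. STK31, a testis kinase gene, rose from 10.2 ± 0.777 to 15.8 ± 0.549 CPM (n = 4 each, SD; log2 fold change 0.63, SE 0.103, edgeR adjusted p = 0.000937). STAG3, ZCWPW1, MEIOC and TDRKH had log2 fold changes of 0.53, 0.29, 0.42 and 0.03 with adjusted p-values of 0.204, 0.348, 0.415 and 0.858. The filter can favour genes that are high in 1 group, so no count over these 5 is read. Leaving out parental replicate 3 gave 3 calls in this list, and leaving out parental replicate 1, 2 or 4 or knockout replicate 3 gave 2. The filter ran anew in each of these fits, so these counts are not read either.

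Regulators of MYC protein turnover gave 3 calls among 18 genes, 16.7% beside 27.0% of all tested genes (median log2 fold change -0.07). GSK3A, which encodes a kinase that marks MYC for degradation, fell by 0.28 (edgeR adjusted p = 0.0271), and STUB1, a ubiquitin ligase gene, fell by 0.35 (0.0342). PIM1, a kinase gene, rose by 0.30 (0.0473). No call was made without parental replicate 1 or knockout replicate 1 or 3, and 1 was made without parental replicate 3 or 4 or knockout replicate 2 or with upper-quartile scaling. PIM1 was called in 3 of the 9 alternatives on all 8 tumours. FBXW7, the ubiquitin ligase subunit that recognises phosphorylated MYC, was at 16.3 ± 1.64 and 17.8 ± 1.98 CPM (adjusted p = 0.476).

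Among the best known MYC targets are genes of ribosome production. Of 29 nucleolar and ribosome production genes, among them NCL, FBL and BOP1, edgeR called 0, against 27.0% of all tested genes, and 3 had an unadjusted p under 0.05. DESeq2 called 1 and limma-voom 0, and 2 were called by edgeR without parental replicate 2. Their log2 fold changes ran from -0.34 to 0.39, with a median of -0.09. NCL was at 772 ± 104 and 697 ± 62.6 CPM (n = 4 each, SD; edgeR adjusted p = 0.361).

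Of 25 metabolic targets tested, 4 fell and 2 rose, 24% of the list and close to the 27.0% of all tested genes (median log2 fold change -0.07). SHMT2, the mitochondrial serine hydroxymethyltransferase, fell from 168 ± 12.8 to 127 ± 2.78 CPM (log2 fold change -0.41, edgeR adjusted p = 0.00270). LDHA, lactate dehydrogenase A, rose from 1545 ± 154 to 2047 ± 179.5 CPM (n = 4 each, SD; 0.41, adjusted p = 0.0116). Both calls held without each tumour. The list numbered 2 calls without knockout replicate 1 and 3 without parental replicate 1 or knockout replicate 2 or 3.

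Among 20 cell cycle and translation targets, 3 fell and 1 rose, 20% beside 27.0% of all tested genes (median log2 fold change -0.04). ID2, an inhibitor of helix-loop-helix factors, fell from 23.9 ± 1.57 to 12.3 ± 2.50 CPM (-0.96, SE 0.140, edgeR adjusted p = 0.000450). CDK4, the G1 kinase, fell from 114 ± 7.69 to 82.6 ± 7.63 CPM (-0.46, adjusted p = 0.00298). EIF4G1, a translation initiation scaffold, fell by 0.41 (0.0137). TERT, the telomerase catalytic subunit, rose from 2.28 ± 1.03 to 4.80 ± 0.510 CPM (1.08, SE 0.288, adjusted p = 0.0169; SD, n = 4 for each mean). All 4 kept their calls without each tumour.

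Of the genes that MYC is known to repress, 3 fell and 1 rose among 11 tested, 36.4% beside 27.0% of all tested genes. Their median log2 fold change was 0.03. GADD45A, a growth arrest and DNA damage gene, fell from 23.2 ± 1.68 to 9.75 ± 1.73 CPM (-1.25, SE 0.131, edgeR adjusted p = 4.33e-05). THBS1, which encodes thrombospondin, rose from 133 ± 22.1 to 261 ± 43.4 CPM (0.97, SE 0.143, adjusted p = 0.000473; n = 4 each, SD). GADD45G and the CDK inhibitor gene CDKN1C fell by 1.05 and 1.00 on the log2 scale (0.0108 and 0.00405). CDKN1A was at 106 ± 13.4 and 128 ± 24.2 CPM (adjusted p = 0.179). Of 7 proliferation markers, MKI67 among them, edgeR, DESeq2 and limma-voom each called 0, and 0 had an unadjusted p under 0.05; without parental replicate 2 edgeR called 1.

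**Figure D5:**
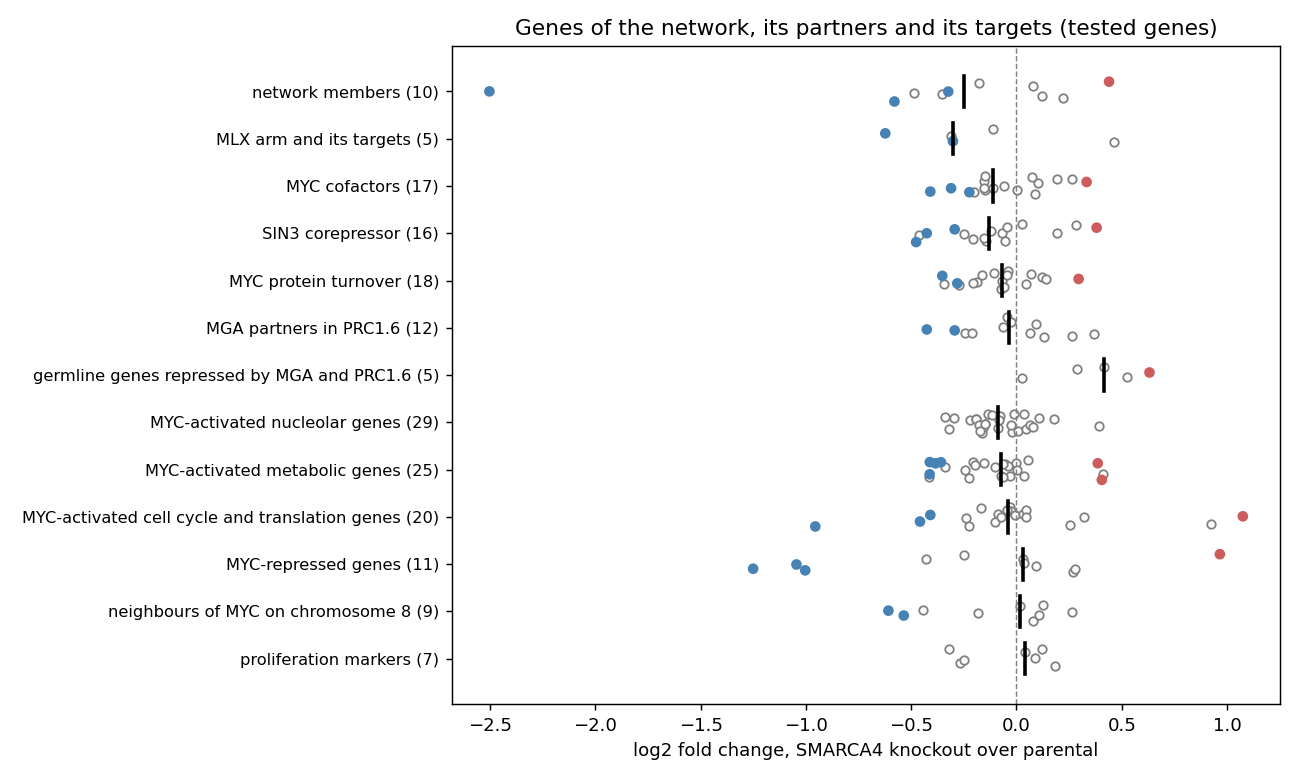
Log2 fold change (horizontal axis, knockout over parental) of the tested genes of the network and of the 12 other lists, with the number tested in brackets; open points were not called, blue points were called lower and red points higher, and black bars are medians. Nucleolar targets and proliferation markers hold no filled point, and list medians lie between -0.30 and 0.04 apart from the germline genes, of which 5 of 16 were tested.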

How the data were processed

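Each of the 8 tumours has 1 file of raw read counts per gene symbol, made by the authors with TopHat2 2.1.1 and HTSeq 0.11.0 on hg38, per the submitters' processing notes. The annotation, strandedness and any step separating mouse host reads are not given in the sources used here, so mouse host reads may be included in these counts. The 5 summary lines stayed out of library sizes; 79.1% to 85.2% of all reads were assigned to a gene. All 8 libraries differed from each other by more than sampling noise (chi-square per degree of freedom at least 8.21).

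The deposited counts were filtered with filterByExpr (minimum count 10, minimum total 15), scaled by TMM and fitted with edgeR 4.0.16 (quasi-likelihood F-test, no covariate) in R 4.3.3. P-values were adjusted by Benjamini-Hochberg over 16219 genes, and an adjusted p under 0.05 is a call. The SE is the log2 fold change over the square root of F. CPM uses the TMM-scaled library size. Log2 CPM for profiles had a prior count of 2. Alternatives were DESeq2 1.42.0, limma-voom (limma 3.58.1), 4 other scalings, 2 other filters, a replicate block and each tumour left out. Named genes were all members, SMARCA4, up to 2 called genes per list with the smallest p, and the 3 profiles nearest to MYC and to the member of smallest p. The members and lists were chosen with earlier results of these data known. USP36 and CCAT1 were not analysed here, and CIP2A and LRATD2 were counted under these symbols, not their older ones (KIAA1524 and FAM84B). Intervals cover counting error only.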

Additional observations from a re-analysis of the deposited data

Results flagged for a closer look

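In 20 sets of 4 values (10 members in each group), the highest or lowest tumour was set against the other 3. Chance marks about 1 in 20 such sets, and 1 was marked. MYCL was at 6.12 CPM in knockout replicate 4, above the other knockout tumours at 5.51 to 5.61 CPM, a gap of 0.845 of the group's whole range, above the limit of Dixon's test at 95% confidence. The tumour still lay below every parental value.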

How the results depend on the processing

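The calls of MYCN, MYCL and MAX held in all 9 alternatives on 8 tumours and in all 8 fits that left out 1 tumour. The number of called members was 4 or 5 in the former and 3 to 5 in the latter, and that of all genes 3871 to 4902 and 3501 to 4721. Leaving out 1 tumour gave -0.48 to -0.25 for MYC, 0.36 to 0.55 for MXD1 and -0.63 to -0.34 for MXI1. For the list genes called it gave 17 to 40. MXI1 became a call with DESeq2 (-0.49), with no low-count filter (-0.50) and with the replicate block (-0.50, edgeR adjusted p = 0.0119); the cause was not tested. Signs turned, without a call, for MXD3 without knockout replicate 4 (range -0.043 to 0.20 with 1 tumour left out), MXD4 without parental replicate 4 (-0.054 to 0.20) and MGA without parental replicate 2 (-0.29 to 0.0053). They also turned for FAM49A without parental replicate 2 or knockout replicate 4 (0.11), within a range of -0.39 to 0.20. No pairing by replicate number was seen over all genes. Correlations of same-numbered deviations were -0.04, -0.02, -0.19 and 0.09, and 1 of 8 libraries matched its own number best. Such values cannot show that the tumours were not paired. With the block 3871 genes and 5 members were called, and ARRDC4 was not (0.104). Of 204 list counts under alternatives, 43 moved by more than 1.5 times. Upper-quartile scaling shifted the median of all genes most, to 0.04. MYCN rests on 145 knockout counts, which limits the precision of its level.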

Other observations

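MEIOB, a meiotic gene of the list of germline targets of MGA and PRC1.6, fell under the low-count filter and has no adjusted p. Parental replicates 1 to 4 held 1, 1, 1 and 4 counts. Knockout replicates 1 to 4 held 12, 17, 8 and 12. Every knockout library held more counts than any parental library, while in CPM the groups did not overlap for 29.3% of all tested genes. The ratio of pooled parental to knockout levels was 0.141 (exact 95% interval for counting error 0.0540 to 0.314). The gene was chosen after its values were seen. DAZL, DDX4, HORMAD1, MAEL, SLC25A31, SMC1B, SYCE2, SYCP3, TAF7L and TDRD1, the other genes of that list under the filter, had 0 to 14 counts in all parental and 0 to 18 in all knockout libraries. Unlike MEIOB, most of these had fewer counts in knockout than in parental libraries. Parental and knockout counts were 14 and 9 for TAF7L, 12 and 7 for SYCE2 and 10 and 3 for DDX4. TDRD1 had 8 and 0, HORMAD1 and SLC25A31 2 and 0 each, and DAZL 1 and 0. SMC1B had 1 and 1 and MAEL 0 and 0, while SYCP3 had 11 and 18.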
